A study of Homo sapiens with 4 samples.

Results

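The genes described here are 42 members of the Wnt signalling pathway and its transcriptional targets, out of 20037 protein-coding genes annotated on chromosomes 1 to 22, X and Y. They were chosen by name for their place in the pathway, with earlier results of these data known. All 42 were found in the RefSeq gene table of GRCh38. MTA1, a subunit of the nucleosome remodelling and deacetylase complex NuRD, had been immunoprecipitated with its bound chromatin (ChIP) from crosslinked HCT116 cells, a line of epithelial morphology that derives from colorectal carcinoma. The study comprised 2 MTA1 ChIP libraries and 2 input libraries made without antibody from the same line, and no group had any treatment in the labels. Each deposited peak list set 1 ChIP library against the control of the same number, and they are called list 1 and list 2 here. List 1 held 32042 peaks and list 2 held 31079, of which 32003 and 30939 lay on these chromosomes. The lists give a position and a caller score for each peak and no read counts, so depth and the spread between libraries are unknown, and separate cultures are not stated in the labels for the numbered libraries. A score is the authors' value, with no stated scale, and it is used here to rank peaks within a list.

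In the canonical pathway, Wnt ligands bind Frizzled receptors and the coreceptors LRP5 and LRP6 at the cell surface, and Dishevelled proteins carry the signal to a destruction complex of AXIN, APC and GSK3B. That complex marks beta-catenin, the product of CTNNB1, for degradation, and beta-catenin that escapes it enters the nucleus and acts with TCF and LEF factors. In the intestinal epithelium the pathway maintains stem cells at the crypt base, and its activation by mutation is a common early step of colorectal carcinoma. HCT116 cells carry an activating mutation of CTNNB1.

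Most Wnt pathway genes carried an MTA1 peak in at least 1 list, but at no gene did the lists call the same place. A peak midpoint lay inside the gene or within 1000 bp of its ends in list 1 for 33 of 42 genes (78.6%, 95% Wilson interval 64.1 to 88.3%), against 48.6% of all protein-coding genes. In list 2 this held for 17 of 42 (40.5%, 27.0 to 55.5%), against 37.0% of all. Either list had such a peak at 36 genes (85.7%), against 61.8% of all. Regions shared by the lists, formed where peaks overlapped by at least 1 bp, numbered 1114 in the genome, and none lay in these genes or within 1000 bp of them. A count of 0 of 42 allows a share of up to 7.14%, and the share over all protein-coding genes was 4.27%. The genes were chosen for their function with earlier results known, so their counts are set beside those of all genes without a test. All intervals cover counting error only.

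**Figure D1:**
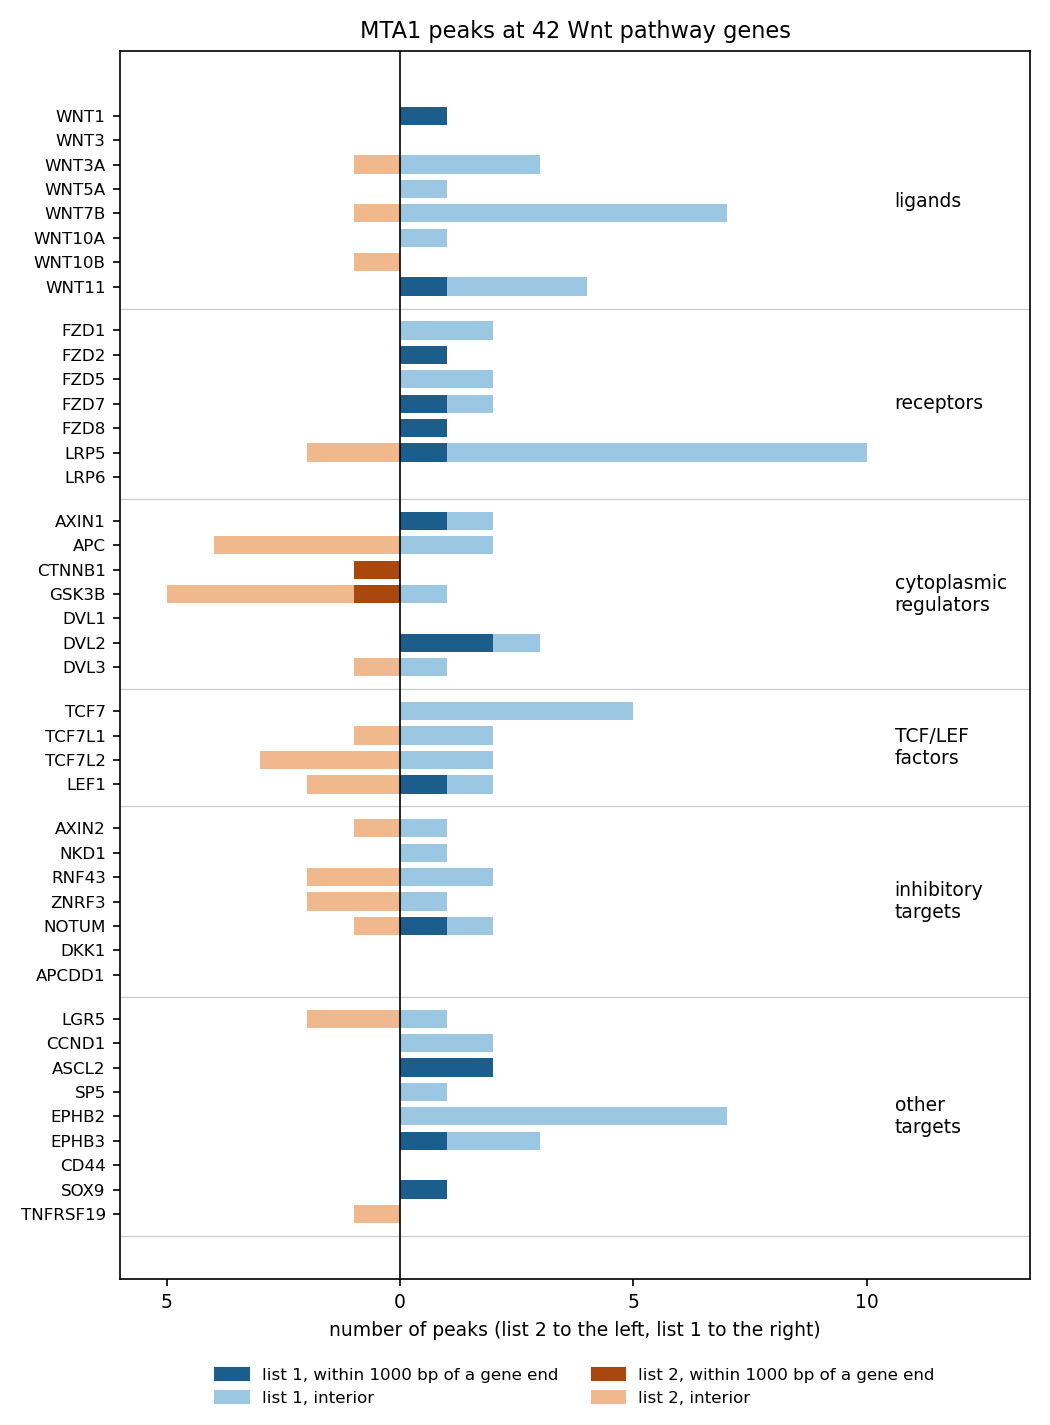
Number of peaks at each of the 42 genes, with list 1 to the right and list 2 to the left. Dark bars count peaks within 1000 bp of an annotated gene end and light bars those further inside the gene. LRP5 had 10 list 1 peaks, and 6 genes had no peak of either list.

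In all, 79 list 1 peaks and 31 list 2 peaks were assigned to the 42 genes, and no peak was assigned to more than 1 of them. The list 1 peaks scored from 50.08 to 173.05, with a median of 70.56 against 64.08 in the whole list. Their median width was 912 bp against 712 bp. The list 2 peaks scored from 50.35 to 105.96, with a median of 62.79 against 60.65 in the whole list. Of the list 1 peaks, 12 (15.2%) were among the best-scoring 10% of their list, and of the list 2 peaks 2 (6.45%) were. The best peaks of the whole lists scored 2348.07 and 2350.28, and the best peaks at Wnt pathway genes ranked 519 in list 1 and 926 in list 2.

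How gene ends in list 1 compared with those of other genes depended on the window. The window used for the counts was 1000 bp to either side of each annotated end, so that it took in promoters and the ends of transcripts alike. A list 1 peak lay there at 13 of 42 genes (31.0%, 19.1 to 46.0%), and 24.3% of all protein-coding genes had one. A list 2 peak lay there at 2 of 42 (4.76%, 1.32 to 15.8%), against 6.28% of all. Within 3000 bp of an end, list 1 had a peak at 24 of 42 genes, against 35.3% of all, and list 2 at 5, against 15%. Within 1000 bp, no gene had an end peak of both lists, against 2.61% of all, and none had a shared region at an end, against 2.00% of all. Within the gene, over 1000 bp from both ends, list 1 had a peak at 28 of 42 genes (66.7%, 51.6 to 79.0%), against 35.0% of all. List 2 had an interior peak at 16 of 42 (38.1%, 25 to 53.2%), against 33.4% of all. The list 2 shares were thus near those of all genes at both positions, while the list 1 share was higher inside genes. The median length was 37.4 kb for these genes against 24.1 kb for all. Per 100 kb of gene, list 1 had 2.75 peaks in the 42 genes and 1.55 in all genes, and list 2 had 1.06 and 1.26.

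The 1000 bp limit divided peaks at nearly equal distances. Just inside it were the list 1 peaks of FZD2 at 873 bp and EPHB3 at 932 bp and the list 2 peak of GSK3B at 833 bp. Just outside were list 1 peaks within SP5 at 1010 bp, FZD7 at 1072 bp, FZD5 at 1211 bp, TCF7L1 at 1310 bp and FZD1 at 1327 bp, which count as interior. FZD7 also had an end peak, at 641 bp. List 1 peaks 1011 bp outside WNT10B and 1160 bp outside DVL1 were not counted, and these genes had no list 1 peak in the window.

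**Figure D2:**
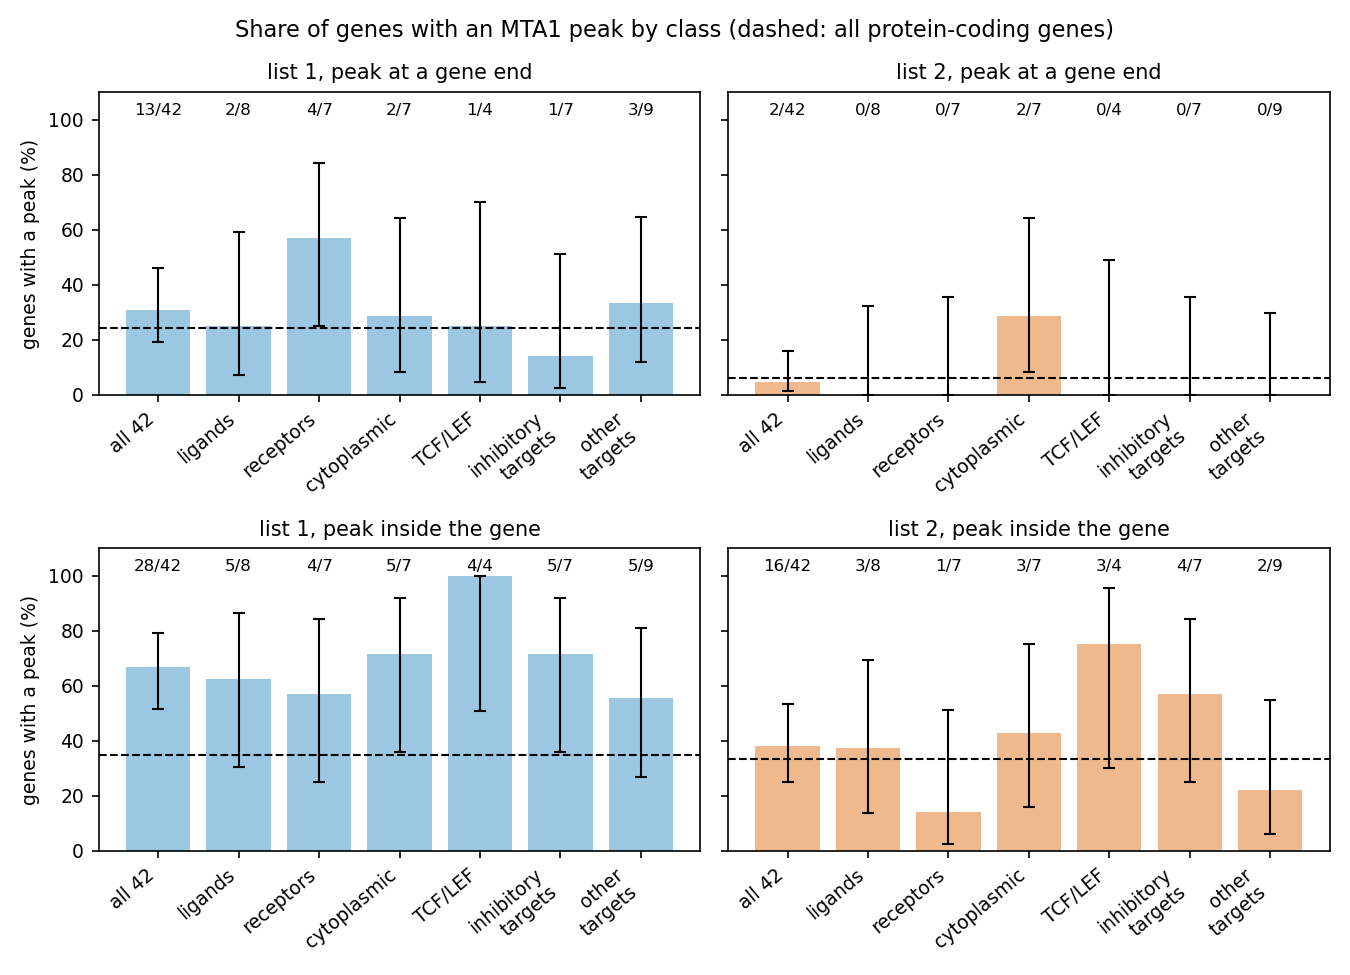
Share of genes with a peak at a gene end (upper panels) or in the interior (lower panels), in percent, for list 1 (left) and list 2 (right). Bars are the 42 genes and their 6 classes, error bars are 95% Wilson intervals, numbers above are genes with a peak over genes in the class, and dashed lines give all protein-coding genes. In the 4 TCF/LEF genes list 1 had an interior peak in every gene, and TCF7L1, TCF7L2 and LEF1 are over 100 kb long.

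The ligand genes held 17 list 1 peaks in 6 of 8 genes and 3 list 2 peaks in 3 genes. WNT7B, which encodes a ligand that can activate beta-catenin signalling, had 7 of the list 1 peaks, and the other 5 genes had 10. Its peaks were spread over the gene, and the highest, at chromosome 22, 45943096 to 45944797, scored 172.87 and ranked 520 (best 1.62% of list 1). The next, at 45952194 to 45953113, scored 146.25, and the one nearest to an end, at 1825 bp, scored 107.74. The single list 2 peak of WNT7B scored 53.06 and was separated from the nearest list 1 peak by 12.7 kb. WNT11, a ligand known mostly for signalling without beta-catenin, had 4 list 1 peaks. The peak at its higher-coordinate end (chromosome 11, 76210269 to 76211219) lay 17 bp from that end and scored 59.05, and the interior peak at 76192350 to 76193931 scored 119.77. The long non-coding RNA gene LINC02761 had an end 212 bp from the end peak.

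WNT1, the founding mammalian member of the family, had a list 1 peak at its start, at chromosome 12, 48977673 to 48979590, with a score of 75.78 and a midpoint 309 bp from the start. Its neighbour WNT10B had no list 1 peak within the window, but a list 2 peak inside the gene scored 55.09 at 1668 bp from an end. A list 1 peak scoring 52.4 lay 1011 bp outside WNT10B. WNT3A, a strong activator of beta-catenin signalling, had list 1 peaks scoring 108.9, 75.86 and 84.07 inside the gene and a list 2 peak scoring 52.98. The nearest list 1 and list 2 peaks of WNT3A were 10.0 kb apart.

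WNT5A, a ligand best known for signalling without beta-catenin, had a list 1 peak that scored 53.16, a value near the lowest in the list. It lay 18.0 kb inside the gene, but 20 bp from a start that the RefSeq promoter table lists there. The list 1 peak of WNT10A (score 68.72) likewise lay 6.94 kb from the gene end and 205 bp from a listed start, and an end of WNT6 was nearer to it (6.82 kb). WNT3 had no peak, and the nearest peaks to its ends were 138 kb away in list 1 and 145 kb away in list 2.

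In the receptor class, list 1 peaks lay at the ends of 4 of 7 genes (57.1%, 25 to 84.2%), against 24.3% of all protein-coding genes. List 2 had none there, against 6.28% of all, a share at which 0 of 7 is not unusual. The Frizzled genes, which encode the receptors that bind Wnt ligands, are short here. Each of the 5 had a list 1 peak in or beside it and no list 2 peak. Of all protein-coding genes under 25 kb, 36.4% had a list 1 peak inside or within 1000 bp and 15.2% a list 2 peak. FZD1 had the highest-scoring list 1 peak of all 42 genes, at chromosome 7, 91265305 to 91266216, which scored 173.05, ranked 519 and lay 1327 bp downstream of the start. A further peak 2229 bp downstream scored 99.33. FZD5 had peaks 1211 and 2641 bp downstream of its start, scoring 112.72 and 119.91. FZD7 had an end peak scoring 55.2 at 641 bp and an interior peak scoring 78.81, and FZD2 had an end peak scoring 72.73. In FZD8 the peak (score 70.48, chromosome 10, 35642270 to 35643021) lay 349 bp upstream of the start, and the gene LOC124902528 had an end nearer to it, at 201 bp.

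The coreceptor genes LRP5 and LRP6, which encode related proteins and are each 151.0 kb long, had opposite outcomes. LRP5 had 10 list 1 peaks and 2 list 2 peaks, while LRP6 had none of either. The end peak of LRP5 (chromosome 11, 68297980 to 68299083) scored 81.98 and lay 119 bp from the lower-coordinate end, and the others scored from 50.26 to 78.09. The list 1 peak at 68312028 to 68313169 lay 7 bp from a listed inner start. The list 2 peak at 68361401 to 68361891 (score 65.75) came within 460 bp of a list 1 peak (score 62.02) without overlap. At LRP6 the nearest peaks to an end were 166 kb away in list 1 and 89.4 kb away in list 2. LRP5 held 10 of the 18 list 1 peaks of the receptor class, so the class has 8 without it.

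**Figure D3:**
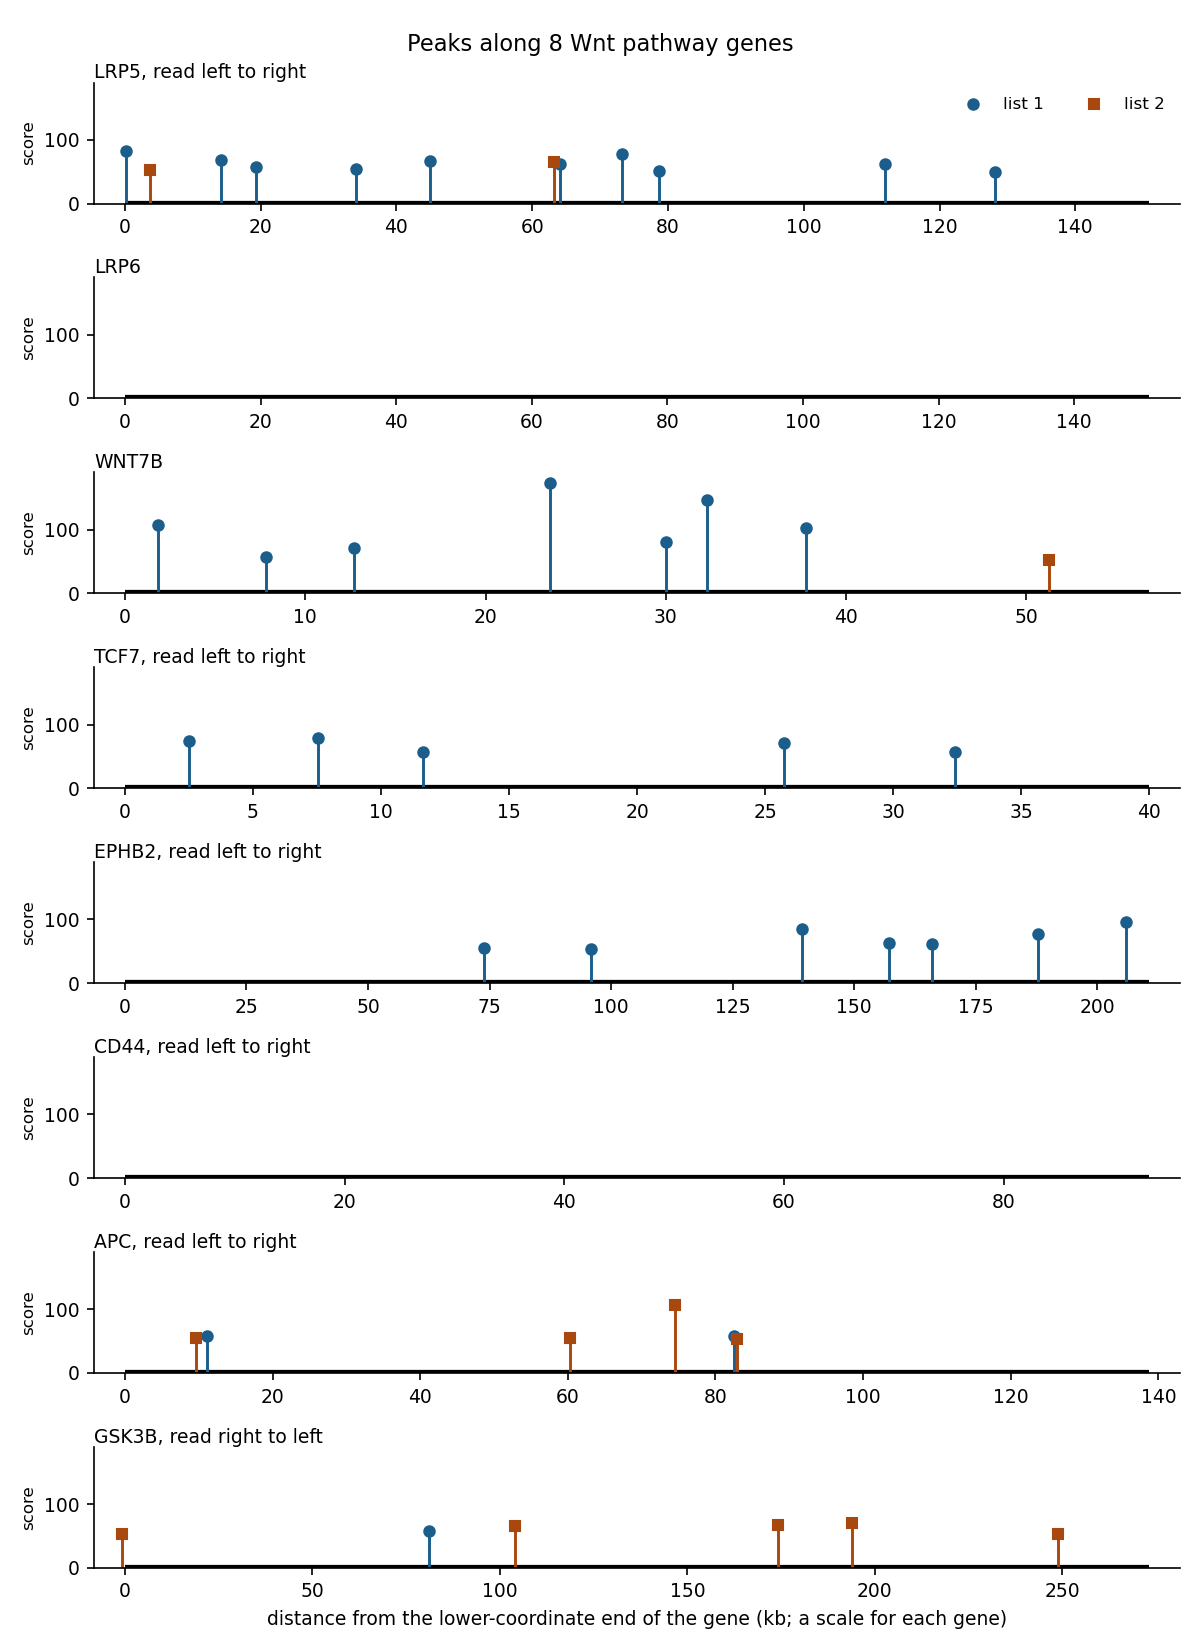
Peaks along 8 of the genes, plotted as distance from the lower-coordinate end in kb (each gene has its own scale) against peak score, for list 1 (circles) and list 2 (squares). The black line is the gene, and reading direction is given where the promoter table lists it. LRP5 carried 10 list 1 peaks where LRP6, of the same length, carried none, and in APC and GSK3B list 2 peaks were the more numerous.

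Among the cytoplasmic regulators, list 2 had 11 peaks against 9 in list 1, but GSK3B held 5 of the 11 and 1 of the 9. Without GSK3B, list 2 had 6 peaks in the class, fewer than list 1. The class held the only end peaks of list 2 in the whole set, at 2 of 7 genes (28.6%, 8.22 to 64.1%), against 6.28% of all. Of the 9 further cytoplasmic regulators examined below, none had one. The stronger of the 2 end peaks lay at CTNNB1, at chromosome 3, 41198843 to 41199489, directly before the start of the gene. It scored 78.94, ranked 4692 (best 15.1% of list 2), and its midpoint was 339 bp upstream of the start. The nearest list 1 peak was 66461 bp away. GSK3B, which encodes the kinase that phosphorylates beta-catenin, had its list 2 end peak (score 52.71) 833 bp beyond the end of the transcript. A further 4 list 2 peaks inside GSK3B scored from 52.48 to 69.79, and its single list 1 peak scored 57.49 and was 22.3 kb from the nearest of them. GSK3B spans 273.0 kb and CTNNB1 40.9 kb.

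APC, the scaffold of the destruction complex, held 4 list 2 peaks and 2 list 1 peaks, none at an end. The list 2 peak at chromosome 5, 112781803 to 112782348, scored 105.96 and ranked 926 (best 2.98%), the highest of list 2 among the 42 genes. APC also held the closest approach of the lists, where a list 1 peak (112789885 to 112790194, score 57.49) and a list 2 peak (112790251 to 112790660, score 53.14) were 56 bp apart. AXIN1, another scaffold of that complex, had a list 1 peak past its transcript end, at 685 bp, that scored 61.15, but an end of PDIA2 was nearer to it (460 bp). Its interior peak scored 57.54.

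The Dishevelled genes differed from each other. DVL2 had 3 list 1 peaks within its 9.18 kb, scoring 71.95 at the start (282 bp), 63.32 at the far end (755 bp) and 108.9 in between. ACADVL, whose end lay 831 bp from the peak at the far end, is a close neighbour. DVL3 had 1 peak of each list, scoring 74.44 and 56.4, 1.93 kb apart. DVL1 had none within 1000 bp, although list 1 peaks scoring 64.29 and 177.03 lay 1160 and 2739 bp outside it.

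All 4 TCF/LEF genes, which encode the DNA-binding partners of beta-catenin, held list 1 peaks inside the gene, 10 in all. LEF1 had a further one at its end. An interior list 1 peak was present in 35.0% of all protein-coding genes. However, TCF7L1, TCF7L2 and LEF1 are 177, 217 and 121 kb long. Of all genes from 100 kb, 74.4% had a list 1 peak inside or within 1000 bp. Per 100 kb, list 1 had 1.98 peaks in this class, against 2.75 in the 42 genes and 1.55 in all genes. Each TCF/LEF gene had a list 1 peak within 3000 bp of the start listed first in its reading direction. That position was shared by 27.1% of the 15843 protein-coding genes with a listed start. At LEF1 the interior peak at chromosome 4, 108166192 to 108167228, scored 122.82 (best 6.09% of list 1) and lay 409 bp upstream of a listed start inside the gene. Ends of LEF1-AS1 (815 bp) and LOC124900752 (1229 bp) were nearer to it than the LEF1 gene end (2222 bp). The LEF1 end peak at 108168507 to 108169337 scored 67.0 and lay 10 bp from the end of the annotated gene. TCF7L1 had a peak 1310 bp downstream of its start (score 87.06) and TCF7L2 had one 2099 bp downstream (score 72.76), 4 bp from an end of the non-coding RNA gene LOC124902502. TCF7 had 5 list 1 peaks, and the one at chromosome 5, 134114883 to 134116662, scored 78.93 and lay 159 bp from a listed start, while an end of VDAC1 was 1232 bp from it. List 2 had 6 peaks in the class, scoring from 57.63 to 94.58, and none in TCF7. LEF1 held the highest of these, and the lists came no closer than 6.62 kb in TCF7L2, 43.3 kb in LEF1 and 109.0 kb in TCF7L1.

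Targets that inhibit the pathway, and so form its negative feedback, had 7 list 1 and 6 list 2 peaks in 7 genes. NOTUM, a secreted enzyme that inactivates Wnt ligands, had the highest, a list 1 peak at chromosome 17, 81959222 to 81961579, that scored 124.27 (best 5.84%) and lay 787 bp from its higher-coordinate end. In NOTUM a list 1 peak scoring 50.55 and a list 2 peak scoring 67.66 were 1.76 kb apart. AXIN2, the feedback homologue of AXIN1, had interior peaks scoring 52.2 in list 1 and 60.63 in list 2, 1.74 kb apart. RNF43 and ZNRF3, ubiquitin ligases that remove Frizzled receptors from the membrane, had interior peaks of both lists. The RNF43 peaks scored 59.92 and 83.62 in list 1 and 52.3 and 50.35 in list 2, and those of ZNRF3 scored 85.1 in list 1 and 70.73 and 55.51 in list 2. NKD1, which binds Dishevelled, had a single list 1 peak, scoring 81.19. DKK1, a secreted antagonist of LRP5 and LRP6, and APCDD1, a membrane inhibitor, had none. The nearest list 1 peaks to their ends were 5.49 kb away at DKK1 and 40.2 kb away at APCDD1.

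The remaining targets had 17 list 1 peaks and 3 list 2 peaks in 9 genes. ASCL2, a transcription factor of intestinal stem cells, had 2 end peaks in list 1, scoring 88.15 at 353 bp and 54.86 at 646 bp from its higher-coordinate end on chromosome 11. SOX9, a transcription factor of crypt progenitors, had an end peak scoring 85.43 at 535 bp, at chromosome 17, 72120862 to 72122249. CCND1, which encodes cyclin D1, had an interior list 1 peak scoring 137.09 (best 4.11%) at chromosome 11, 69643690 to 69645647. EPHB2 and EPHB3 encode receptors that position cells along the crypt. EPHB2 had 7 list 1 peaks scoring from 54.27 to 96.13, the nearest to the start 74.0 kb downstream of it. EPHB3 had 3, scoring 54.83, 72.22 and, at its far end, 62.92. SP5, a transcription factor that is a direct Wnt target, had a list 1 peak (score 65.68) 1731 bp downstream of its start.

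List 2 peaks in this class were confined to 2 genes. LGR5, the R-spondin receptor that marks intestinal stem cells, had interior list 2 peaks scoring 70.78 and 83.99 and a list 1 peak scoring 50.08, close to the list minimum of 50.0. TNFRSF19 had a list 2 peak scoring 73.71 and none of list 1. CD44, a cell adhesion receptor of 93.2 kb, had none, and the nearest peaks to its ends were 162 kb away in list 1 and 150 kb away in list 2.

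Across the set, 14 genes had peaks of both lists, 19 of list 1 alone and 3 of list 2 alone. Peaks of both lists were thus present in 42.4% of the genes with a list 1 peak and 82.4% of those with a list 2 peak. These values are near the 40.5% of all 42 genes with a list 2 peak and the 78.6% with a list 1 peak. Of all protein-coding genes, 9739 had a list 1 peak, 7412 a list 2 peak and 4776 both. Both lists were present in 33.3% of the 42 genes and in 23.8% of all protein-coding genes. The 6 genes without a peak were WNT3, LRP6, DVL1, DKK1, APCDD1 and CD44. Over the 42 genes, Spearman's rho between peak number and gene length was 0.13 in list 1 and 0.58 in list 2, and over all protein-coding genes it was 0.37 and 0.58. These are descriptions across genes, which are not independent replicates.

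In list 1, the difference between the 42 genes and all genes was largest among short genes. Of the 19 of these 42 genes under 25 kb, 16 had a list 1 peak inside or within 1000 bp (84.2%). The share was 36.4% of the 10198 protein-coding genes of that length. From 25 to 100 kb the shares were 63.6% (7 of 11) and 54.5%, and from 100 kb they were 83.3% (10 of 12) and 74.4%. In list 2 the shares were 15.8% and 15.2% under 25 kb, 45.5% and 49.8% in the middle class, and 75% and 78.5% in the longest. Of the 19 short genes, those without a list 1 peak were WNT10B, DVL1 and DKK1. The length classes were chosen after the data were seen. Of the 14 genes with peaks in both lists, NOTUM and DVL3 were the only ones under 25 kb.

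**Figure D4:**
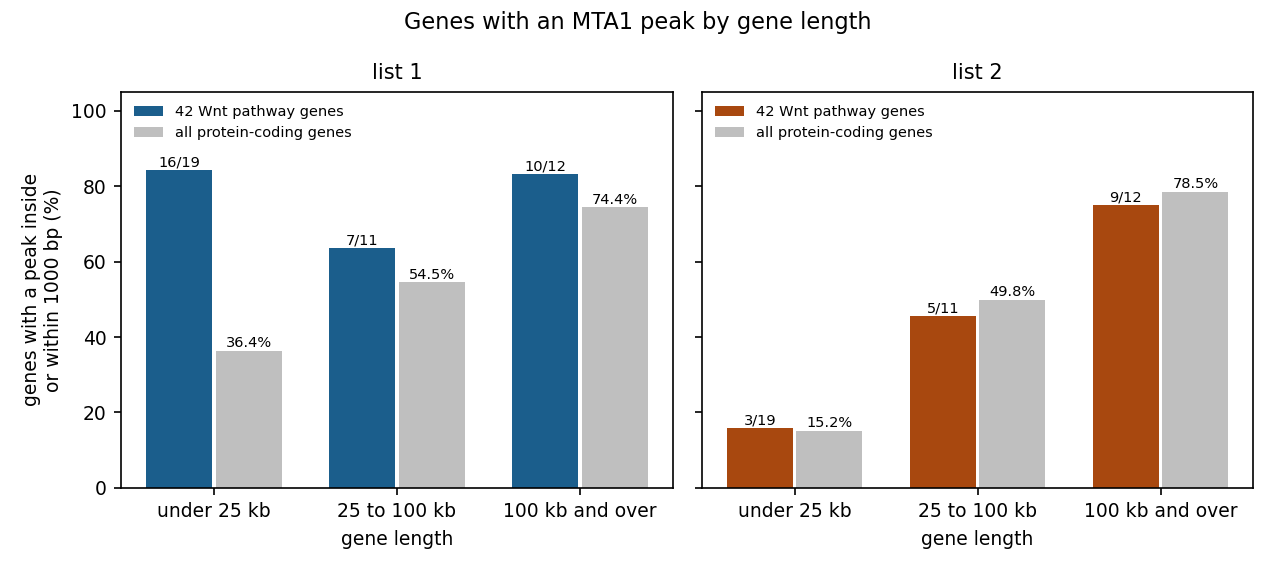
Percent of genes with a peak inside the gene or within 1000 bp, by gene length, for the 42 Wnt pathway genes (coloured bars, with genes over genes in the class) and all protein-coding genes (grey bars). In list 1 the share among the 19 of the 42 genes under 25 kb was 84.2% against 36.4%, and in list 2 it was 15.8% against 15.2%.

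Starts listed in the RefSeq promoter table (GRCh38.p14) were available for 28 of the 42 genes, with the outermost listed start used for each. A list 1 peak midpoint lay within 3000 bp of the start at 14 of these 28 genes (50.0%, 32.6 to 67.4%), against 27.1% of genes with a listed start. It did so at 4 of 4 receptors with a listed start, which FZD2, FZD7 and LRP6 lacked. The counts were 4 of 4 for TCF/LEF genes and 4 of 5 for ligands. They were 1 of 7 for cytoplasmic regulators, DVL2, none of 3 for inhibitory targets and 1 of 5 for other targets, SP5. A list 2 peak lay within 3000 bp of the start at 1 of 28, CTNNB1, against 9.71%. The promoters of these genes were rich in G and C, with a median of 69.2% over 300 bases against 62.7% for all 15843. Their median ratio of observed to expected CpG was 0.85 against 0.76. Among all genes with a listed start, base composition moved with list 1 peaks, with a median of 66.3% G and C where a peak lay within 3000 bp and 61.0% where none did. Among the 28 the medians were 68.3% with such a peak and 69.2% without. The part of base composition in the list 1 counts was not tested.

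The 250 bases before the start are given for a ligand gene, a receptor gene and 2 TCF/LEF genes where a list 1 peak covered all of them, and for CTNNB1, where the list 2 peak covered 235 of them. Capitals mark CpG dinucleotides, and the sequences are from RefSeq (GRCh38.p14), 5′ to 3′ on the strand of the gene. For TCF7 and LEF1 the listed start lies inside the annotated gene.
WNT1, chr12:48978072-48978321, plus strand: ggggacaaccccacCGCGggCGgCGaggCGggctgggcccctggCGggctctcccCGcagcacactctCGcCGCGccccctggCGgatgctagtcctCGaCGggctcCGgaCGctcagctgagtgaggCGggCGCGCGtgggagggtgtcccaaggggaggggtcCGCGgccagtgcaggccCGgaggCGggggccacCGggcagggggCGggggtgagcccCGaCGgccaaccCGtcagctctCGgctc
FZD8, chr10:35642297-35642546, minus strand: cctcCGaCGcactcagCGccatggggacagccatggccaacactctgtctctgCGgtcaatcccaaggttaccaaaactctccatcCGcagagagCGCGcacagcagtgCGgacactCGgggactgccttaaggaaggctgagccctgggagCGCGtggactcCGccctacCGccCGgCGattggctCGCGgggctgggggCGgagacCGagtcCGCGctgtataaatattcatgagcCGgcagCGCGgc
TCF7, chr5:134115363-134115612, plus strand: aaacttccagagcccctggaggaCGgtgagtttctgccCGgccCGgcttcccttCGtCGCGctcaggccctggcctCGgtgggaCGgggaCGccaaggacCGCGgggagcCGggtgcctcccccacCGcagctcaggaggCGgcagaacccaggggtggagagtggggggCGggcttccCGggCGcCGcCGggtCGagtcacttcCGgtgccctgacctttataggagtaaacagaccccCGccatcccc
LEF1, chr4:108166302-108166551, minus strand: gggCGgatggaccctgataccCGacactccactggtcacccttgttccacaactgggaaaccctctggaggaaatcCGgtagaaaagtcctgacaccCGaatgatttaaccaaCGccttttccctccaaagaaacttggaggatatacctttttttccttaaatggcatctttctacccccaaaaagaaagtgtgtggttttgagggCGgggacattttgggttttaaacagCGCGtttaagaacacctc
CTNNB1, chr3:41199255-41199504, plus strand: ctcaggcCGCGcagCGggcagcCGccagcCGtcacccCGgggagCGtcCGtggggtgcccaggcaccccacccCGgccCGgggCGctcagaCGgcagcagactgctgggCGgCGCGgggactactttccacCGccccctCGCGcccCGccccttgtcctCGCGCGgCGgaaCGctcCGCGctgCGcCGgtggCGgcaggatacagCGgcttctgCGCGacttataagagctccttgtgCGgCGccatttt
These stretches held 29 CpG in WNT1, 24 in FZD8, 22 in TCF7, 8 in LEF1 and 34 in CTNNB1. LEF1 was thus the poorest in CpG of the 5 printed and had the highest-scoring peak of the 4 printed from list 1. List 1 peaks also covered all 250 bases at WNT5A, WNT10A and LRP5, which are not printed. Those stretches held 14, 24 and 43 CpG, and the peaks scored 53.16, 68.72 and 68.97. A relation of CpG number to score was not tested.

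The core of the TCF/LEF motif, CTTTGA, was searched on both strands in the 300 bases from 250 before to 50 after each start, and 2 of 28 Wnt pathway promoters held it (7.14%), those of SP5 and DKK1, against 11% of all promoters. The longer forms that contain it, CTTTGAA and CTTTGAT, were found in 2 and 1 of the 28 and in 3.63% and 1.96% of all promoters. A match is a description of the sequence and not evidence of binding. Both promoters are printed here because neither was covered by a peak of either list, with capitals on each match to the core on either strand.
SP5, chr2:170715087-170715336, plus strand: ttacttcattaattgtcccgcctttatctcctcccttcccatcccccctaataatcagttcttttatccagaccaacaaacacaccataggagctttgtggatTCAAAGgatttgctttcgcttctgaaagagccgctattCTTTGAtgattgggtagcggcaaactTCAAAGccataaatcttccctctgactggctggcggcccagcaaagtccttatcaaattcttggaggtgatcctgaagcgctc
DKK1, chr10:52314031-52314280, plus strand: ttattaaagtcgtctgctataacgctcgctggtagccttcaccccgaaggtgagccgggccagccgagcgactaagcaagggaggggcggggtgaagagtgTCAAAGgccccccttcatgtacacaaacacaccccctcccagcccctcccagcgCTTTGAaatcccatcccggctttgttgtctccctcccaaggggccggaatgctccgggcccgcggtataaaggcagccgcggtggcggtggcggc
The SP5 stretch held 3 matches and the DKK1 stretch 2. The SP5 peak lay downstream of this stretch, and the nearest list 1 peak to DKK1 scored 59.31.

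Other Wnt pathway genes were examined as a separate list of 56 ligands, receptors, secreted modulators, cytoplasmic regulators and nuclear cofactors. A list 1 peak lay at an end of 14 of 56 (25%), against the 24.3% of all genes given above, and a list 2 peak at an end of 1, RSPO1. None had both. Inside the gene, list 1 had peaks in 29 of 56 (51.8%), against 35.0% of all genes, and list 2 in 18 (32.1%), against 33.4%. By class, 10 of the 11 further ligand genes and 4 of the 10 receptors had an interior list 1 peak. So did 7 of 17 secreted modulators, 3 of 9 cytoplasmic regulators and 5 of 9 nuclear cofactors. At an end, list 1 had a peak at 2 of the 10 further receptors (20.0%). Within 3000 bp of the start, list 1 had a peak at 14 of the 42 further genes with a listed start (33.3%, 21.0 to 48.4%), against 27.1%. By class these were 2 of 7 receptors and 3 of 11 ligands. They were 4 of 10 secreted modulators, 1 of 6 cytoplasmic regulators and 4 of 8 nuclear cofactors. Of the further Frizzled genes, FZD3 and FZD9 had a list 1 peak, FZD6 a list 2 peak alone, and FZD4 and FZD10 none. Of the further genes under 25 kb, WNT6, WNT8A, WNT8B, WNT16, FZD9, SFRP5, PORCN, GSK3A and PYGO2 had a list 1 peak inside or within 1000 bp. The others of that length, FZD4, FZD10, RSPO1, SFRP2, SFRP4, DKK4, KREMEN2 and AMER1, had no such list 1 peak. The end peak of GSK3A, the paralogue of GSK3B, scored 603.78 and ranked 6 in list 1 (chromosome 19, 42241982 to 42243728), 253 bp from its start, far above any peak of the 42 genes. LGR4, a receptor for R-spondins, had an end peak scoring 161.99, BTRC, the ubiquitin ligase subunit that recognises phosphorylated beta-catenin, 127.79, FZD9, another Frizzled gene, 113.32, and TLE4, a corepressor of TCF factors, 94.6. RSPO1, a secreted agonist, had a list 2 peak scoring 67.19 at 82 bp from its start.

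Shared regions lay inside 4 of these 56 genes (7.14%, against the 4.27% of all genes given above) and in none of the 42. The strongest was in BCL9L, a coactivator of beta-catenin, at chromosome 11, 118902054 to 118903576, with scores of 172.65 in list 1 and 71.01 in list 2. BTRC had one scoring 63.03 and 74.48, CSNK1D one scoring 58.11 and 53.55, and WNT6 one scoring 61.52 and 54.06. The WNT6 region lay 2512 bp outside an end of the neighbouring WNT10A, and it was the only shared region within 3000 bp of an end of any of the 42 genes.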

How the data were processed

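The submitters' processing notes name cutadapt, Bowtie2 and the build GRCh38, without versions. In the deposited lists, peak names are of the form that MACS writes, and no source used here gives its version or settings. The score in column 5 was assigned to each peak by the authors' caller on a scale that is not stated. The deposited lists are per replicate, not from pooled libraries, as their names show. Positions were made 1-based, and peaks on other sequences (39 in list 1, 140 in list 2) were left out.

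Genes came from a RefSeq table with 1 row per gene and no exons, so exons and introns were not told apart. A peak was placed by its midpoint, at a gene end within 1000 bp of either annotated end and otherwise inside the gene. Where the promoter table listed a start (28 of the 42 genes, 15843 of all), distances to it were also taken. Shared regions were overlapping peaks (at least 1 bp) merged. The 42 members, the 56 other genes and the classes were chosen with earlier results of these data known, and counts carry no test. Every member was named, and of the other 56 genes those with a shared region and up to 5 per list with the best end peak. Intervals are 95% Wilson intervals, and the limit for a count of 0 is 3 counts. Python 3.11.15, pandas 2.3.3, scipy 1.17.1 and matplotlib 3.10.9 were used, and the placement rule was tested on simulated data. Alternatives were other windows, any overlap in place of the midpoint, starts alone, each list alone, a mutual overlap of 50% or more, and only the better-scoring 50% of peaks.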

Additional observations from a re-analysis of the deposited data

How the results depend on the processing

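Of 37 alternative values, 21 were within 1.5 times the reported count and 16 were not. With windows of 500 and 3000 bp, genes with an end peak in list 1 numbered 7 and 24 (16.7% and 35.3% of all genes) in place of 13, and in list 2 1 and 5 (3.8% and 15% of all) in place of 2. The 3000 bp window gave 3 genes with end peaks of both lists (6.9% of all) and 1 with a shared region (2.81% of all), WNT10A. Any overlap in place of the midpoint gave 20 genes in list 1 and 1 gene with end peaks of both lists. The share over all genes was not taken with that rule, so these counts cannot be set beside other genes. Starts alone gave 8 of 28 in list 1, against 20.6% of all genes with a listed start, and 1 of 28 in list 2, against 4.68%. Both are among the 16 values outside 1.5 times, but the reported counts, 13 and 2, are out of 42 genes. The lower counts for starts alone are thus not by themselves lower shares. The better-scoring 50% of the lists gave 1 gene with a list 2 end peak, and 1.69 and 0.587 peaks per 100 kb, fewer by construction. For these values too, none was taken over all genes. With list 2 alone 2 genes had an end peak and with list 1 alone 13, which are the counts already reported for each list. They are also among the 16, set against the count that required both lists, and are larger by construction. Genes with a list 1 peak near a listed start numbered 8 within 1000 bp in place of 14, against 20.6% of all. The alternatives for short genes and listed starts were chosen after seeing the data. Among 19 short genes, 16 had a list 1 peak in the better-scoring 50% (25% of all). No paired analysis was possible because the lists hold peak calls, not values per library. Depth is unknown, so an absent peak may be one that was not detectable.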
